A study of Mus with 8 samples.

Results

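Transcripts of 10 genes that carry out cytokinesis, the physical separation of daughter cells at the end of mitosis, were measured in mouse liver 48 h after partial hepatectomy, the surgical removal of some liver lobes, after which the remainder regrows. The genes were chosen by symbol: Ect2, Racgap1, Kif23, Prc1, Kif20a, Kif20b, Kif14, Anln, Cit and Cep55. All 10 were found, each as 1 row, among the 23185 named genes of the table. One group held 4 liver samples labelled as control (Control 1 to 4) and the other 4 liver samples labelled LKB1 KO (LKB1 KO 1 to 4), each on its own expression array. Both groups had the same operation and the same collection time. Not given in the sources used here are the strain, the sex, the age, the allele and any Cre driver of the knockout, and whether each array stands for a separate animal. P-values therefore measure the spread between these samples, which may in part be technical. Stk11 encodes LKB1, a kinase that acts upstream of AMPK and its relatives. The question addressed is how these transcripts stand with and without LKB1 in a regenerating liver.

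Cytokinesis begins when antiparallel microtubules are bundled into a central spindle between the separating chromosomes. The central spindle recruits the exchange factor ECT2, which activates the GTPase RhoA beneath the cell membrane, and an actin and myosin ring then pinches the cell. The remaining bridge, with the midbody at its centre, is cut in abscission. Liver is known for hepatocytes that replicate DNA and divide the nucleus without completing this step, which leaves binucleate and polyploid cells. Most genes of the apparatus are transcribed late in the cell cycle, so their levels in whole tissue follow how many cells are in G2 and mitosis. In whole liver RNA, a different number of dividing cells and a different transcript level per dividing cell cannot be told apart.

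Every value below is a log2 expression value as deposited, and each difference is LKB1 KO minus Control in log2 units. The array medians lay between 3.75 and 3.96 log2 units, and correlations between arrays over genes lay between 0.960 and 0.988. LKB1 KO 2 stood apart, with the highest median, values in the narrowest range (SD 1.92 log2 units over genes, against up to 2.10 log2 units) and the lowest mean correlation with its own group (0.974). Among the Control arrays this correlation was lowest for Control 4 (0.976). Stk11 was lower in all 4 LKB1 KO arrays, from 3.97 to 4.84 log2 units against 6.46 to 6.76 log2 units in Control, a difference of -2.39 (SE 0.19, limma adjusted p = 0.000453), so that no array went against its label. The residual Stk11 value was highest in LKB1 KO 3, which also had the highest value of 7 of the 10 cytokinesis genes. As a gauge of background, the mean levels of 1354 olfactory and vomeronasal receptor genes were used, of which 95% lay under 3.73 log2 units.

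All 10 cytokinesis genes had a higher mean in the LKB1 KO samples, though Cit lay under the background gauge on all 8 arrays. Of the 10, 7 were higher by at least 1 log2 unit, and the median difference was 1.12 log2 units. Over all genes the median difference was 0.016 log2 units, 52.9% of genes had a higher mean in LKB1 KO and 0.794% had one higher by at least 1 log2 unit. None of the 10 passed the test: 0 had a limma adjusted p under 0.05 over the 23185 genes, where 1.98% of all genes passed in either direction, 0.487% as higher and 1.49% as lower in LKB1 KO. At an unadjusted limma p under 0.05, 8 of the 10 were higher and 0 were lower, against 5.80% of all genes higher and 7.63% lower. The arrays of the groups overlapped in each of the 10 genes, while 3.34% of all genes had every LKB1 KO array above every Control array. With 4 arrays against 4, an exact two-sided permutation test of a gene cannot give a p below 0.0286. The exact permutation p lay at 0.0571 for Racgap1, Prc1, Kif20a and Cep55, at 0.0857 for Ect2, Kif23, Kif20b and Anln, at 0.171 for Kif14 and at 0.514 for Cit (unadjusted).

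**Figure D1:**
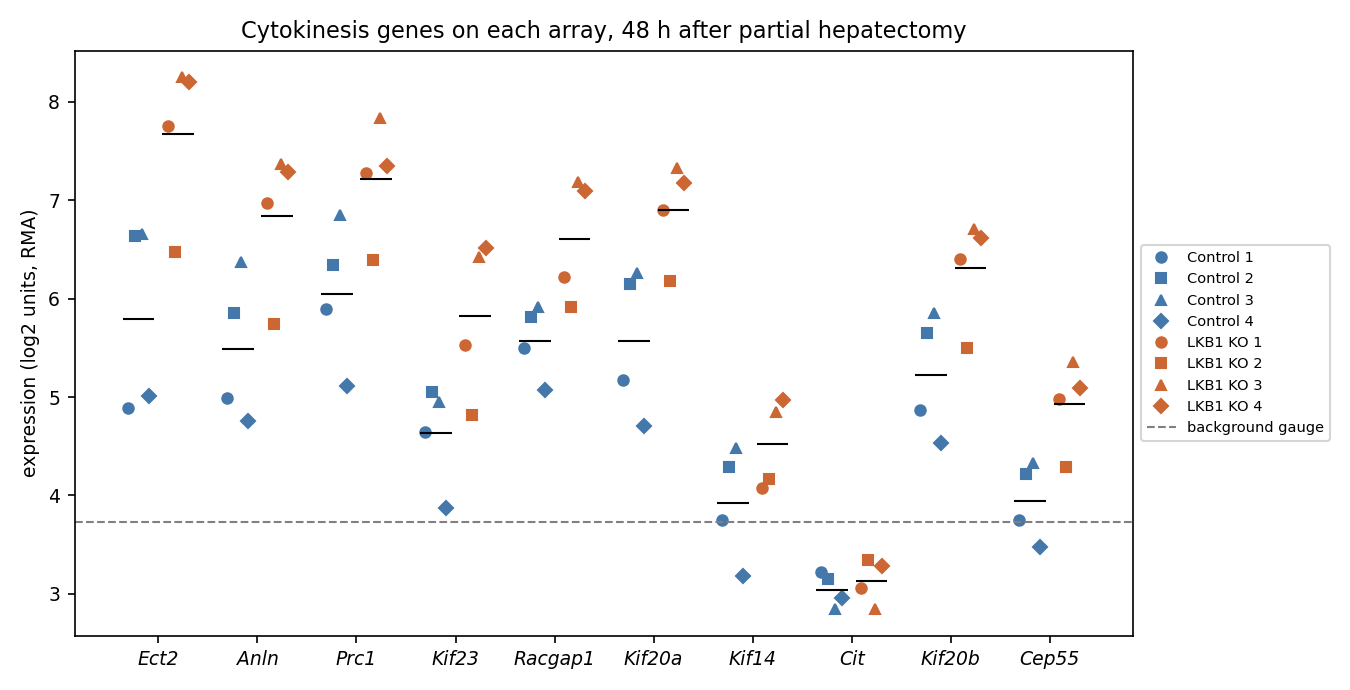
Log2 expression of the 10 cytokinesis genes (vertical axis, log2 units) on each array, with Control arrays in blue, LKB1 KO arrays in orange, black bars for group means and a dashed line for the background gauge of 3.73 log2 units. In 8 genes LKB1 KO 1, 3 and 4 lie above every Control array, LKB1 KO 2 lies among the Control arrays, and Cit lies under the gauge on all 8 arrays.

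Ect2 encodes the guanine nucleotide exchange factor that switches on RhoA at the cleavage site. Its log2 values were 4.89, 6.64, 6.66 and 5.01 across Control 1 to 4, and 7.75, 6.47, 8.25 and 8.21 across LKB1 KO 1 to 4. LKB1 KO 1, 3 and 4 were above all Control arrays, whereas LKB1 KO 2 was below Control 2 and Control 3, so the groups overlapped. The group means were 5.80 ± 0.98 and 7.67 ± 0.83 log2 units (SD, n = 4), a difference of 1.87 (SE 0.49, 95% confidence interval 0.78 to 2.97), or 3.66-fold. This was the widest difference of the 10 genes, and 0.0906% of all genes had a higher one. The limma adjusted p was 0.0939. The Control arrays alone spanned 1.77 log2 units, nearly as much as the difference between the groups.

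The central spindle is built by PRC1, which crosslinks antiparallel microtubules, by centralspindlin, a complex of the kinesin KIF23 with the GTPase activating protein RACGAP1, and by the kinesin KIF20A, which brings the chromosomal passenger complex to the midzone. Kif20a had log2 values of 5.17, 6.15, 6.27 and 4.71 across Control 1 to 4 and 6.90, 6.18, 7.33 and 7.18 across LKB1 KO 1 to 4. Control 1 and Control 4 were the lowest, and LKB1 KO 2 lay between Control 2 and Control 3. The difference of Kif20a was 1.33 (SE 0.36, limma adjusted p = 0.102). For Kif23 the Control values were 4.65, 5.05, 4.95 and 3.88 log2 units and the LKB1 KO values 5.52, 4.82, 6.42 and 6.52 log2 units. Its single low LKB1 KO array was again LKB1 KO 2, and its single low Control array was Control 4. Kif23 differed by 1.19 (SE 0.38, limma adjusted p = 0.173).

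Racgap1, whose protein pairs with KIF23 and binds ECT2, ran at 5.50, 5.81, 5.91 and 5.07 log2 units across Control 1 to 4 and at 6.22, 5.91, 7.18 and 7.09 log2 units across LKB1 KO 1 to 4. LKB1 KO 2 minus Control 3 was -0.0035 log2 units, and the remaining LKB1 KO arrays were above all Control arrays. The difference of 1.03 (SE 0.30) had a limma adjusted p of 0.126. Prc1 ran at 5.90, 6.34, 6.85 and 5.12 log2 units in Control and at 7.27, 6.39, 7.84 and 7.34 log2 units in LKB1 KO. Here too LKB1 KO 2 fell inside the Control range. Prc1 differed by 1.16 (SE 0.37, limma adjusted p = 0.176). Both partners of centralspindlin thus had similar mean differences, though Kif23 was the more variable, with SDs of 0.53 and 0.80 log2 units in Control and LKB1 KO against 0.38 and 0.63 log2 units for Racgap1.

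Anln encodes anillin, the scaffold that ties actin, myosin and septins together in the contractile ring. Its log2 values were 4.99, 5.86, 6.37 and 4.76 across Control 1 to 4 and 6.97, 5.74, 7.37 and 7.28 across LKB1 KO 1 to 4. LKB1 KO 2 was below 2 of the Control arrays. Its value minus that of the highest Control array was -0.62 log2 units, the lowest such value among the 10 genes. The mean difference was 1.35 (SE 0.41, 95% confidence interval 0.44 to 2.26), or 2.55-fold, with a limma adjusted p of 0.156.

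Kif14 and Cit act at the midbody: KIF14 is a kinesin that binds PRC1, and citron kinase, the product of Cit, organises the midbody and binds KIF14. Kif14 measured 3.75, 4.29, 4.48 and 3.18 log2 units across Control 1 to 4 and 4.08, 4.17, 4.85 and 4.97 log2 units across LKB1 KO 1 to 4. Only LKB1 KO 3 and LKB1 KO 4 exceeded every Control array, so it did not share the pattern of LKB1 KO 1 with most of the other genes. Its difference was 0.59 (SE 0.30, 95% confidence interval -0.067 to 1.25, limma adjusted p = 0.440), and Control 4 was below the background gauge. Cit measured 3.22, 3.15, 2.85 and 2.96 log2 units across Control 1 to 4 and 3.06, 3.34, 2.85 and 3.28 log2 units across LKB1 KO 1 to 4. All 8 of its values lay under the gauge of 3.73 log2 units. Its difference of 0.089 (SE 0.15, 95% confidence interval -0.24 to 0.42, limma adjusted p = 0.859) is therefore no measure of the transcript above background, and without both LKB1 KO 2 and Control 4 it stood at -0.0075.

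Cep55 and Kif20b belong to the last step. CEP55 gathers at the midbody and recruits the ESCRT proteins that cut the bridge, and KIF20B is a kinesin of the late midbody. Cep55 had log2 values of 3.75, 4.22, 4.33 and 3.48 across Control 1 to 4 and 4.98, 4.29, 5.36 and 5.09 across LKB1 KO 1 to 4. The groups overlapped narrowly, with LKB1 KO 2 minus Control 3 at -0.043 log2 units. The difference was 0.99 (SE 0.25, 95% confidence interval 0.43 to 1.54), or 1.98-fold. Its limma adjusted p of 0.0822 was the lowest of the 10. Control 4 lay under the background gauge and Control 1 just above it, so the size of this difference is uncertain. Kif20b had log2 values of 4.87, 5.65, 5.86 and 4.54 in Control and 6.40, 5.50, 6.71 and 6.62 in LKB1 KO. LKB1 KO 2 was again inside the Control range, and Kif20b differed by 1.08 (SE 0.33, limma adjusted p = 0.156).

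**Figure D2:**
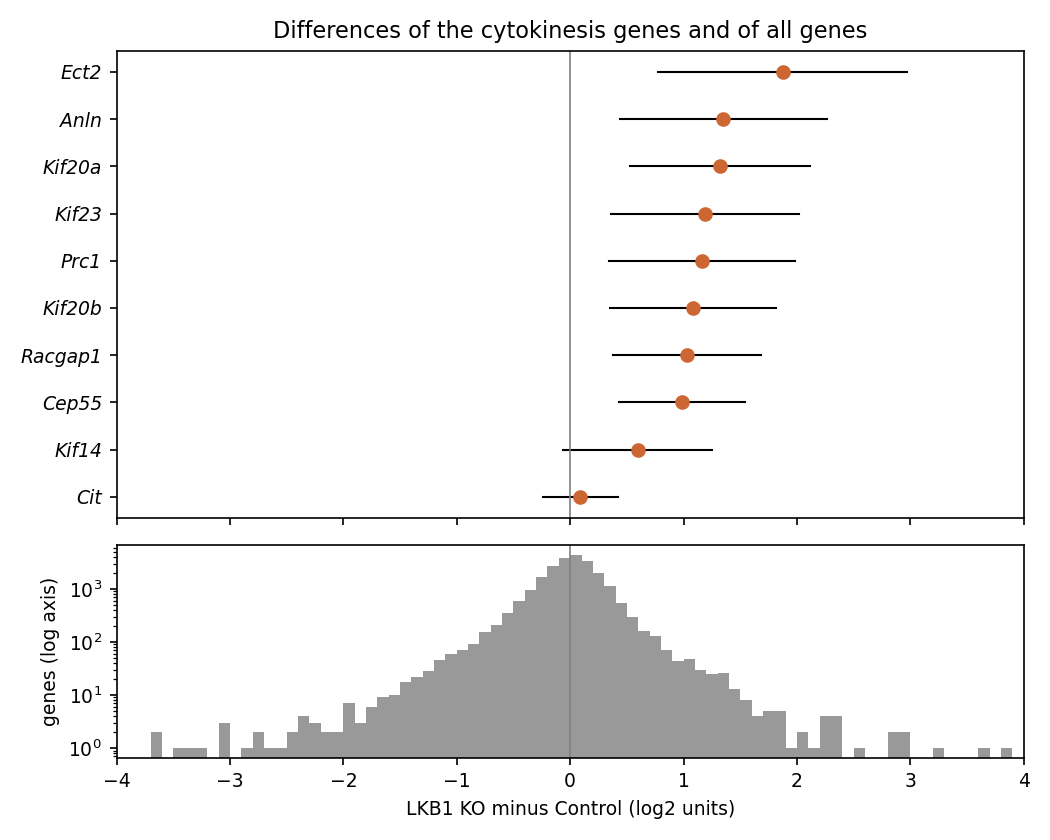
Upper panel: difference of each cytokinesis gene, LKB1 KO minus Control in log2 units, as a point with its 95% confidence interval from the limma fit. Lower panel: the same difference for all 23185 genes as a histogram with a log axis. The intervals of 8 genes exclude 0 before adjustment for the number of genes tested, those of Kif14 and Cit include it, and the adjusted p of each of the 10 was above 0.05.

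The cytokinesis genes varied together from array to array. In 9 of the 10, Cit being the exception, Control 1 and Control 4 were both below Control 2 and Control 3 and below every LKB1 KO array. Control 4 was the lowest of all 8 arrays in 8 genes, and LKB1 KO 3 or LKB1 KO 4 was the highest in 9. LKB1 KO 1, 3 and 4 lay above every Control array in 8 genes, all but Kif14 and Cit, against 6.89% of all genes. LKB1 KO 2 was the lowest LKB1 KO array in the same number, and it was below the highest Control array in 9. These are descriptions of the same 8 samples and not separate evidence for each gene.

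The spread inside each group was wide for these genes. Within Control, 9 of the 10 had an SD above the median over all genes of 0.21 log2 units, up to 0.98 log2 units for Ect2. Within LKB1 KO all 10 had an SD above the median over all genes of 0.22 log2 units. The Control range exceeded 1 log2 unit in 7 genes, and the difference between the groups exceeded the Control range in 4 of the 10. The mean profile of the 10 genes was computed after centring each gene on its own mean. The gene nearest to the mean of the other 9 was Kif20b, with a root mean square difference of 0.10 log2 units over the 8 arrays. Cit was the farthest at 0.83 log2 units, and Ect2 followed at 0.60 log2 units.

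Genes outside the 10 were also compared with that mean profile over the 8 arrays, with placeholder symbols, such as those ending in Rik, left out. The smallest root mean square differences were those of Prr11 (0.092 log2 units), Trim59 (0.094 log2 units), Spag5 (0.11 log2 units), Bub1b (0.12 log2 units) and Reep4 (0.12 log2 units). Spag5 encodes a protein of the mitotic spindle and Bub1b the spindle checkpoint kinase BUBR1. Prr11 had log2 values of 5.91, 6.34, 6.73 and 5.65 across Control 1 to 4 and 7.15, 6.51, 7.66 and 7.58 across LKB1 KO 1 to 4, so that LKB1 KO 2 again lay between Control 2 and Control 3. The differences of the 5 genes ran from 1.04 for Bub1b to 1.12 for Reep4, with limma adjusted p from 0.0929 to 0.177.

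Which arrays were left out, and how they were weighted, decided whether any cytokinesis gene passed. Without LKB1 KO 2, Ect2 (difference 2.27, limma adjusted p = 0.0438), Anln (1.72, limma adjusted p = 0.0496) and Cep55 (1.20, limma adjusted p = 0.0297) passed, beside 0.578% of all genes passing as higher in that fit. With arrays weighted by their agreement with the fit, where LKB1 KO 2 had the lowest weight (0.40), 5 of the 10 passed: Cep55 (limma adjusted p = 0.0239), Ect2 (limma adjusted p = 0.0346), Anln (limma adjusted p = 0.0449), Kif20a (limma adjusted p = 0.0460) and Racgap1 (limma adjusted p = 0.0464). That fit called 1.10% of all genes higher. Without both LKB1 KO 2 and Control 4, Cep55 passed (1.05, limma adjusted p = 0.0316) beside 0.608% of all genes. With any other single array left out, 0 of the 10 passed. The part that the narrow value range of LKB1 KO 2 has in its low cytokinesis values was not tested. After quantile normalization, which gives every array the same distribution, the median difference was 1.16 log2 units and 0 of the 10 passed.

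Kinases, passenger proteins and other proteins that work on the same spindle stood close to the cytokinesis genes. The 10 measured genes of this passenger complex and midzone list were Aurkb, Aurka, Incenp, Birc5, Cdca8, Plk1, Kif4, Kif11, Kif15 and Tacc3. Kif4, Kif11 and Kif15 encode kinesins and Tacc3 a spindle protein, so not all 10 are passenger subunits or kinases. All 10 stood higher on average in LKB1 KO (median 1.10 log2 units), 1 rose and 0 fell. At an unadjusted limma p under 0.05, 8 were higher and 0 were lower, against 5.80% and 7.63% of all genes. The riser was Plk1, the mitotic kinase that triggers ECT2 recruitment. Its log2 values were 5.22, 6.37, 6.69 and 5.25 across Control 1 to 4 and 7.41, 6.84, 7.96 and 7.88 across LKB1 KO 1 to 4, with no overlap. Plk1 rose by 1.64 log2 units (SE 0.36, limma adjusted p = 0.0471), a call kept without Control 3 or without LKB1 KO 2 but lost without each of the other 6 arrays (limma adjusted p up to 0.135) and with median centring (0.0711). Birc5, which encodes the passenger subunit survivin, also had no overlap, with Control arrays from 5.87 to 7.28 log2 units and LKB1 KO arrays from 7.45 to 8.30 log2 units. Its difference of 1.26 (SE 0.28) had a limma adjusted p of 0.0512.

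Of 55 measured mitosis genes outside cytokinesis, 52 stood higher on average in LKB1 KO (median 0.99 log2 units), 3 rose and 0 fell. At an unadjusted limma p under 0.05, 42 were higher and 0 were lower, against 5.80% and 7.63% of all genes. Those that rose were the cyclin gene Ccnb2 (1.54, SE 0.29, limma adjusted p = 0.0250), the spindle checkpoint gene Mad2l1 (1.44, SE 0.30, limma adjusted p = 0.0366) and Gtse1, a microtubule-binding regulator of G2 and mitosis (0.87, SE 0.18, limma adjusted p = 0.0345), whose Control 4 value lay under the background gauge. In these 3, LKB1 KO 2 lay above every Control array: for Ccnb2 it had 8.05 log2 units against a highest Control value of 7.54 log2 units. It did so in only 1 of the 10 cytokinesis genes (Cit, which was under the background gauge). The 3 were picked by passing the test, which favours genes without overlap, so they do not stand for the list. Of the 55 mitosis genes, 9 did not overlap, while 3.34% of all genes did not overlap as higher in LKB1 KO. The median deviation of the mitosis list was -0.15 log2 units in LKB1 KO 2 and -0.11 log2 units in Control 2. With single arrays left out, Ccnb2 kept its call without Control 2, Control 3 or LKB1 KO 2 (limma adjusted p otherwise up to 0.0845), Gtse1 without Control 1 or Control 4 (up to 0.106) and Mad2l1 without Control 3 (up to 0.112). Median centring also ended the calls of Gtse1 (0.0588) and Mad2l1 (0.0582). With the replicate number as a block, Plk1 (limma adjusted p = 0.0650), Gtse1 (0.103) and Mad2l1 (0.0561) did not pass, and without moderation of variances neither these nor Ccnb2 passed (0.150 for Gtse1 to 0.238 for Plk1). Mki67, the proliferation marker, stood at 6.44, 7.21, 7.67 and 6.04 log2 units across Control 1 to 4 and 8.04, 7.84, 8.75 and 8.47 log2 units across LKB1 KO 1 to 4, a difference of 1.43 (SE 0.33, limma adjusted p = 0.0599). Top2a, the topoisomerase gene of S and G2 phase, overlapped between the groups, with a difference of 0.72 (SE 0.41, limma adjusted p = 0.510).

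Lists of genes that serve cytokinesis, many of them with other tasks in non-dividing cells, had medians near 0. Of 20 contractile ring and RhoA pathway genes, 12 had a higher mean in LKB1 KO, the median difference was 0.033 log2 units, 0 rose and 1 fell. At an unadjusted limma p under 0.05, 4 were higher and 1 was lower, against 5.80% and 7.63% of all genes. Diaph3 and Arhgap11a, named after their values were seen, were among the 4 higher, so the median does not describe every member. The one that fell was Mylk, the myosin light chain kinase gene, from 6.02 ± 0.095 to 5.27 ± 0.19 log2 units (SD, n = 4; difference -0.76, SE 0.13, limma adjusted p = 0.0169). The septins, filament proteins of the ring, had a median difference of -0.13 log2 units over 9 genes, with 0 past the limma threshold (2 higher and 1 lower at an unadjusted p under 0.05). Of the 9 septin genes, 2 lay under the background gauge on all arrays. Septin4 stood at -0.53 (SE 0.17, limma adjusted p = 0.176) and Septin11 at 0.44 (SE 0.15, limma adjusted p = 0.206). Of 27 abscission and ESCRT genes, 12 had a higher mean, the median difference was -0.059 log2 units, 0 rose and 1 fell (1 higher and 2 lower at an unadjusted limma p under 0.05). That gene was Zfyve26, which encodes a midbody-associated FYVE domain protein, at 5.39, 5.38, 4.96 and 5.28 log2 units across Control 1 to 4 and 4.66, 4.57, 4.48 and 4.59 log2 units across LKB1 KO 1 to 4. Zfyve26 fell by 0.68 log2 units (SE 0.13, limma adjusted p = 0.0273), and its call ended without any array but Control 3 (limma adjusted p up to 0.0938). The call of Mylk ended without Control 2 or LKB1 KO 4 (limma adjusted p up to 0.0621). Both calls also ended with the replicate block (0.0663 for Mylk and 0.0629 for Zfyve26) and without moderation (0.0588 and 0.0747).

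**Figure D3:**
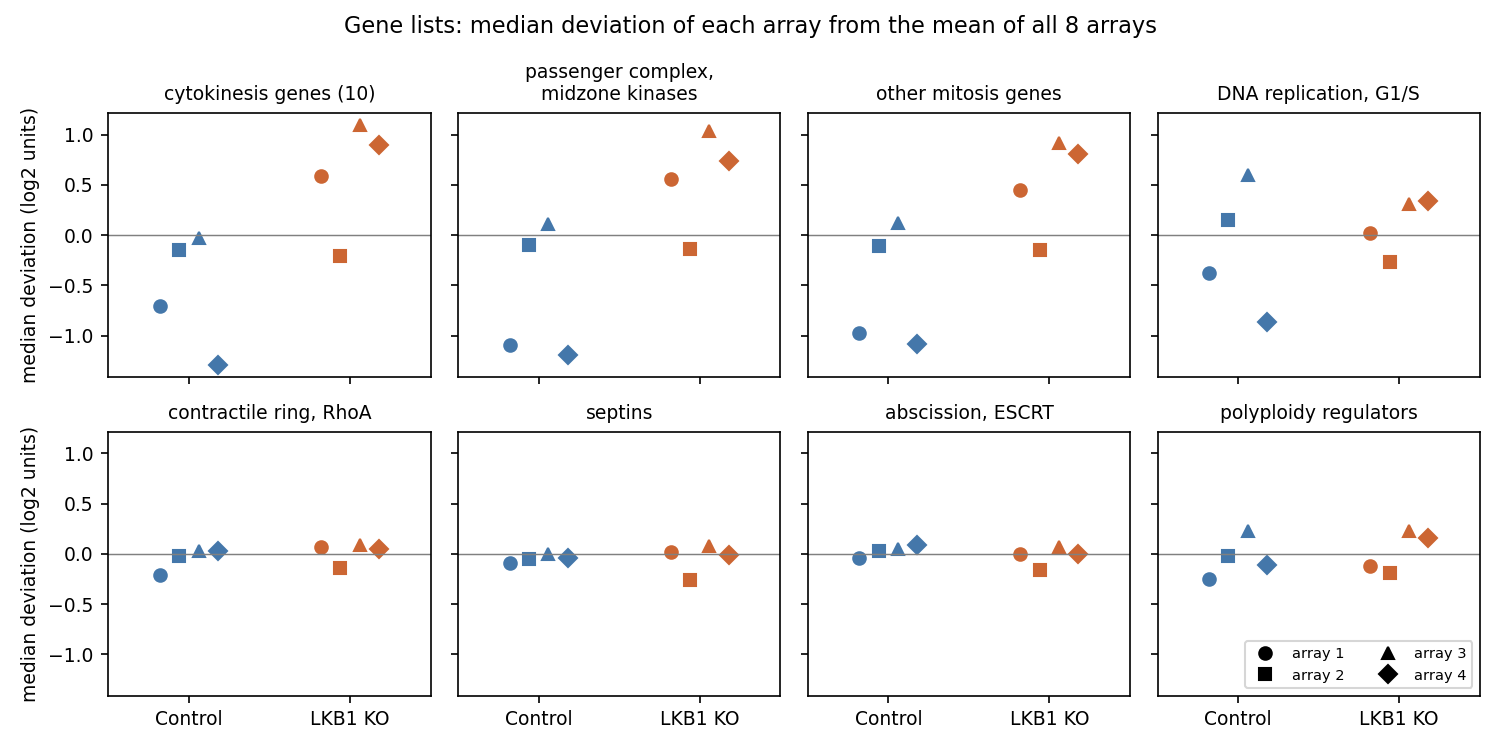
Median deviation of 8 gene lists on each array from the mean of all 8 arrays (vertical axis, log2 units), with Control in blue and LKB1 KO in orange and the marker shape giving the array number within its group. The cytokinesis genes, the passenger complex and midzone list and the other mitosis genes share 1 order of arrays. It runs from Control 4 (-1.29, -1.19 and -1.08) to LKB1 KO 3 (1.10, 1.04 and 0.92). The contractile ring, septin and ESCRT lists stay between -0.26 and 0.090.

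DNA replication genes, which act earlier in the cell cycle, stood closer to 0 on balance than the cytokinesis genes. Of 35 replication and G1/S genes, 24 had a higher mean in LKB1 KO, the median difference was 0.16 log2 units, and 0 rose or fell. At an unadjusted limma p under 0.05, 5 were higher and 1 was lower, against 5.80% and 7.63% of all genes. The nearest to the threshold were the cyclin gene Ccnd1 (0.75, SE 0.20, limma adjusted p = 0.0909) and Tyms, the gene of thymidylate synthase (0.96, SE 0.28, limma adjusted p = 0.136). In both, every LKB1 KO array lay above every Control array, as in 3.34% of all genes. The median deviation of this list was -0.38, 0.15, 0.59 and -0.87 log2 units across Control 1 to 4 and 0.018, -0.26, 0.31 and 0.34 log2 units across LKB1 KO 1 to 4. Control 3 was thus the highest array for replication genes, above every LKB1 KO array. The same measure for the cytokinesis genes was -0.71, -0.15, -0.024 and -1.29 log2 units across Control 1 to 4 and 0.59, -0.21, 1.10 and 0.89 log2 units across LKB1 KO 1 to 4.

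Set against the replication genes of the same array, the groups did not overlap. The median deviation of the cytokinesis genes minus that of the replication list was -0.33, -0.29, -0.62 and -0.42 log2 units across Control 1 to 4 and 0.57, 0.058, 0.78 and 0.55 log2 units across LKB1 KO 1 to 4. All 4 Control arrays lay below 0 and all 4 LKB1 KO arrays above it, LKB1 KO 2 being the closest to 0. The means were -0.42 ± 0.14 and 0.49 ± 0.31 log2 units (SD, n = 4), 0.91 log2 units apart. Gene by gene, 8 of the 10 (all but Kif14 and Cit) no longer overlapped when the replication median of each array was subtracted. For Ect2 the LKB1 KO arrays then ran from 0.00085 to 1.20 log2 units and the Control arrays from -1.47 to -0.24 log2 units. Over all genes the share not overlapping, higher in LKB1 KO, was 3.34% before the subtraction and 0.552% after it. The subtraction adds the array pattern of the replication list to genes that lack it. The share of 0.552% is therefore no fair baseline for genes that vary with that list. The measure relative to the replication list was chosen after the values had been seen and has no test here.

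The separation was shared with other genes of late division. In the same measure 7 of 10 genes of the passenger complex and midzone list and 29 of 55 other mitosis genes did not overlap. Nor did 5 of 35 replication genes themselves. The cytokinesis genes minus the other mitosis genes gave 0.26, -0.034, -0.14 and -0.21 log2 units across Control 1 to 4 and 0.14, -0.057, 0.18 and 0.088 log2 units across LKB1 KO 1 to 4. These ranges overlapped, and the means were 0.12 log2 units apart.

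**Figure D4:**
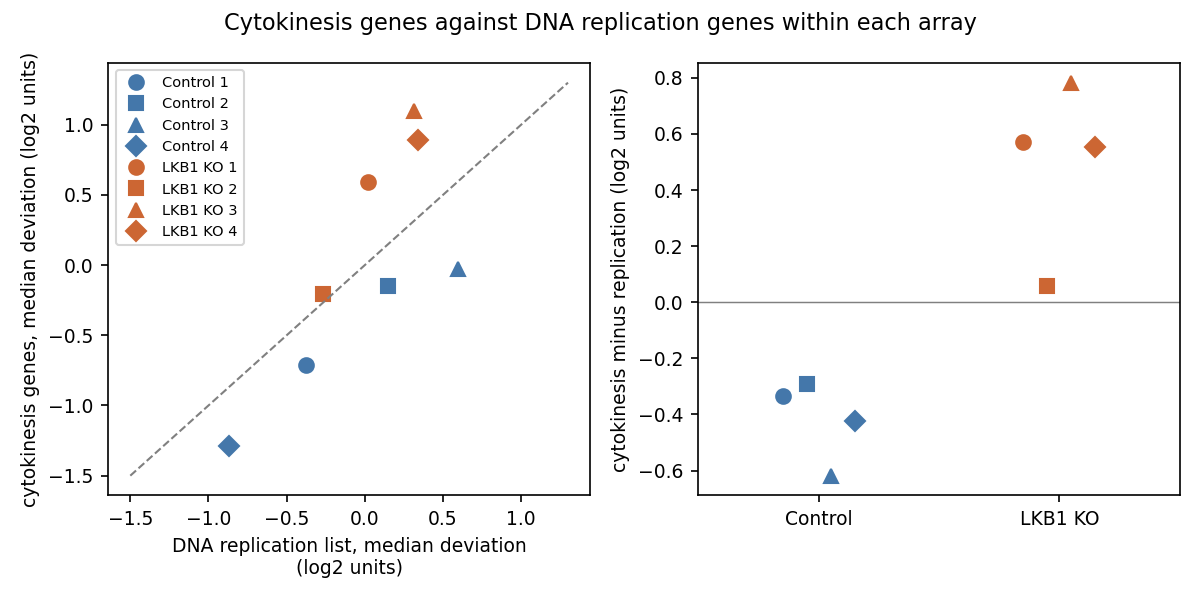
Left: median deviation of the 10 cytokinesis genes (vertical axis, log2 units) against that of the DNA replication list (horizontal axis, log2 units) for each array, with a dashed line where both are equal. Right: the difference of both medians by group, in which the 4 Control arrays lie between -0.62 and -0.29 log2 units and the 4 LKB1 KO arrays between 0.058 and 0.78 log2 units.

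Among 23 regulators tied to hepatocyte polyploidy, E2F factors and G1/S control genes among them, 12 had a higher mean in LKB1 KO, the median difference was 0.031 log2 units, and 0 rose or fell (6 higher and 3 lower at an unadjusted limma p under 0.05, where 5.80% and 7.63% of all genes were). Birc5 and Foxm1, among the 6 higher, were also counted above, on the passenger complex and midzone list and the mitosis list respectively. E2f7 and E2f8 encode atypical E2F factors, repressors known to favour incomplete cytokinesis in liver. E2f8 had log2 values of 5.64, 6.55, 6.30 and 5.47 across Control 1 to 4 and 5.02, 4.61, 5.37 and 5.52 across LKB1 KO 1 to 4. Within Control it was higher in Control 2 and 3, as the cytokinesis genes were, but in LKB1 KO it stood lower, a difference of -0.86 (SE 0.27, limma adjusted p = 0.168) with LKB1 KO 4 just above Control 4. E2f7 stood at -0.036 (SE 0.16, limma adjusted p = 0.952), and its sign turned in 5 of the alternative fits. Foxm1, the transcription factor gene of the G2 and mitosis programme, had Control arrays from 4.29 to 5.79 log2 units and LKB1 KO arrays from 5.84 to 6.71 log2 units, without overlap. Its difference of 1.26 (SE 0.33) had a limma adjusted p of 0.0892.

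Markers of other cells of the liver were read beside these values. Of 7 hepatocyte markers, 2 had a higher mean in LKB1 KO, and the median difference was -0.11 log2 units. In limma 0 of the 7 passed (0 higher and 1 lower at an unadjusted p under 0.05). Their mean level lay between 11.4 and 11.6 log2 units in Control and between 11.4 and 11.5 log2 units in LKB1 KO. All 8 endothelial markers had a lower mean in LKB1 KO and 2 of them fell, Clec4g (-0.83, limma adjusted p = 0.00663) and Kdr (-0.72, limma adjusted p = 0.0434), both named after their values were seen, and 5 were lower at an unadjusted p under 0.05, as 7.63% of all genes were. The mean level of the 8 was 6.55 to 6.93 log2 units in Control and 6.13 to 6.40 log2 units in LKB1 KO. All 8 macrophage markers were also lower on average and Csf1r fell (-0.78, limma adjusted p = 0.0378; 4 lower at an unadjusted p under 0.05), with mean levels of 6.35 to 7.32 log2 units in Control and 6.06 to 6.48 log2 units in LKB1 KO. Of 8 stellate cell markers, 1 had a higher mean in LKB1 KO. Their median difference was -0.36 log2 units, beside -0.54 log2 units for the endothelial and -0.46 log2 units for the macrophage markers. Stellate cell markers had 0 of 8 past the limma threshold (4 lower at an unadjusted p under 0.05) and overlapping mean levels (5.41 to 6.03 against 4.94 to 5.47 log2 units). Of 4 erythroid markers, 1 had a higher mean in LKB1 KO, and the median difference was -0.25 log2 units. Their mean levels were 5.73 to 5.98 log2 units in Control and 5.08 to 5.61 log2 units in LKB1 KO. Alas2 fell (-1.03, limma adjusted p = 0.0471) and was the only one lower at an unadjusted p under 0.05 (0 higher). The calls of marker genes were not followed through the alternative fits, so how far they depend on single arrays is not known here.

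Lymphocyte markers lay near or under the background gauge on average. The mean level of 7 T and NK cell markers was 3.37 to 3.63 log2 units in Control and 3.49 to 3.83 log2 units in LKB1 KO, with 3 of the 7 (Cd8a, Trac and Cd2) under the background gauge on all arrays. That of 4 B cell markers was 2.90 to 3.08 log2 units in Control and 2.79 to 3.37 log2 units in LKB1 KO, with Cd79a and Ms4a1 under the gauge throughout. Neutrophil markers (0 of 6 past the limma threshold, 1 higher and 2 lower at an unadjusted p under 0.05) ran from 4.20 to 4.81 log2 units in Control and 4.08 to 4.32 log2 units in LKB1 KO, and cholangiocyte markers (0 of 5 past either threshold) from 3.38 to 4.08 and 3.34 to 3.89 log2 units. Under the gauge on all arrays were 3 of the 6 neutrophil markers (Ly6g, Elane and Camp) and 2 of the 5 cholangiocyte markers (Epcam and Cftr). The part of the cell mixture in the cytokinesis values was not tested.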

How the data were processed

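Total RNA of 8 liver samples was amplified with a Nugen Ovation PicoSL kit and labelled with biotin, per the labels' protocols. The deposited values are log2 expression values, 1 per gene and array, made by the authors with RMA and Partek (no versions), per the submitters' processing notes. Not given in the sources used here are the array design, probe positions and build; no coordinates or sequences are printed.

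The platform annotation named 1 gene for 23185 of 25206 rows, several for 0 and none for 2021. Groups came from sample titles. limma 3.58.1 in R 4.3.3 (lmFit, eBayes, group as the single term, no filter) compared 4 against 4 arrays, with Benjamini-Hochberg adjustment over 23185 genes and a threshold of 0.05. Genes and lists were chosen with earlier results of these data known. Named were the 10 genes, Stk11, up to 5 called genes per pathway list (otherwise the 2 with the smallest p), Mki67, Top2a, E2f7, E2f8 and the 5 nearest profiles, placeholder symbols left out. Diaph3, Arhgap11a and the marker genes were named after their values were seen. The 7 pathway lists held 175 different measured genes, 4 of them on more than 1 list. Tested on simulated data for this comparison (20 runs, 200 of 23185 genes changed), the fit recovered 8.20%, 67.2%, 88.1% and 95.9% of the genes shifted by 0.5, 1, 1.5 and 2 log2 units, and 4.67% of its calls were false. The shifted genes were drawn at random, with noise independent between genes. Most cytokinesis genes had a wider SD than the median gene, so these rates do not give the recovery for them. Alternatives were the replicate block, single arrays left out, quantile normalization, median centring, removal of the lowest of 3 equal bins of genes by level, a trended and robust prior, no moderation, array weights, all rows and stricter thresholds. The fit without both LKB1 KO 2 and Control 4, the measure relative to replication genes and the background gauge were added after the data had been seen. The number of arrays limits precision.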

Additional observations from a re-analysis of the deposited data

How the results depend on the processing

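The 10 cytokinesis genes had 0 calls as deposited, 5 with array weights, 3 without LKB1 KO 2 and 1 without both LKB1 KO 2 and Control 4; with single arrays left out the count ran from 0 to 3. Their median difference lay between 0.86 (without Control 4) and 1.39 log2 units (without LKB1 KO 2) with single arrays left out, and the value relative to the replication list between 0.79 and 1.06 log2 units. Over all genes, 458 passed as deposited, 139 at an adjusted p under 0.01, 97 without moderation of variances, 721 with array weights, and from 213 to 491 with single arrays left out. Quantile normalization gave 198 higher and 340 lower calls, against 113 and 345 as deposited.

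Equal replicate numbers are not said to share an animal or day, and the deviations of same-numbered arrays correlated at -0.036, -0.11, 0.18 and -0.022 over genes, so the pairing was not used. With the replicate block 268 genes passed and 0 of the 10 cytokinesis genes, and 1 of the 4 Control arrays correlated best with its own number.

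The difference of Cit turned to -0.0075 without both LKB1 KO 2 and Control 4. That of E2f7 ran from -0.15 to 0.049 with single arrays left out and turned to 0.036 without Control 3, 0.049 without LKB1 KO 2, 0.019 without LKB1 KO 4, 0.0071 with array weights and 0.038 without both LKB1 KO 2 and Control 4. The cause of these changes was not tested. Over the 32 named genes and their alternatives, 456 of 544 values kept direction and side of the threshold. Levels under the background gauge on at least 1 array limit Cit, Kif14, Cep55, Gtse1 and Spag5.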
